A study of Homo sapiens with 6 samples.

Results

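The DNA damage response and repair genes described here were 46 genes listed by name. They comprised 11 checkpoint genes, 15 genes of homologous recombination, 7 of end joining, 6 of the Fanconi pathway and its nucleases, and 7 of mismatch and single-strand repair. They were 46 of 52992 genes to which the deposited transcripts could be summed, and all 46 passed the low-count filter among 18514 genes tested.

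RNA was sequenced from NB4, an established acute promyelocytic leukemia cell line, in 6 samples. All samples carried Cas9 and a doxycycline-inducible sgRNA and had received 1 µg/ml doxycycline for 7 days. The LacZ samples expressed an sgRNA against a bacterial gene and had the genotype WT, whereas the sg1 and sg5 samples expressed an sgRNA against ARID1A and are called ARID1A-deficient after their genotype label. Each of the 3 groups had 2 replicates. ARID1A encodes a large DNA-binding subunit of SWI/SNF, a chromatin remodeler. As a model, these were sorted populations of transduced cells and not single clones, and the RNA was taken, per the methods, after cells had also grown for a time off doxycycline. The sources do not say whether replicates came from separate cultures, so that p-values measure only the spread between these samples, which may be technical.

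Cells meet DNA damage with sensor kinases, which halt the cell cycle, and with repair pathways matched to the lesion. Breaks through both strands are rejoined directly by end joining or copied from a sister chromatid by homologous recombination, which works mainly in S and G2 phases. Crosslinks between strands are handled by the Fanconi pathway, mispaired bases by mismatch repair, and breaks of one strand by PARP1, XRCC1 and DNA ligases.

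Total estimated counts were between 46131178 and 54843745 per sample, and the members themselves had between 282 counts (DCLRE1C) and 38073 counts (XRCC6) in a sample. In ARID1A, the targeted gene, library-scaled counts (CPM) were 155 and 191 in LacZ, against 211 and 191 under sg1 and 124 and 145 under sg5. The sg1 samples were not below the LacZ samples, so that the mRNA did not check the labels. In the paper an immunoblot showed ARID1A knocked out in such NB4 cells once doxycycline had been given for 7 days. MPO, AZU1, PRTN3, CTSG and CD33, markers of promyelocytes, were abundant in every sample, with MPO between 5991 and 7769 TPM, a transcript abundance scaled by length, while ELANE had at most 9 counts. In the comparison of sg1 and sg5 joined with LacZ all 5 lay below 0 on the log2 scale, with a median of -0.21, 2 at an unadjusted p under 0.05 and a smallest adjusted p of 0.265 by edgeR. Stem cell and erythroid or megakaryocytic markers were at or near 0, with at most 14 counts. Of 6 lymphoid markers CD3D and CD79A were detected, with 244 to 366 and 233 to 551 counts, and CD3E and MS4A1 had at most 3. CD79A had 327 and 233 counts in LacZ, against 551 and 436 under sg1 and 430 and 488 under sg5, a joined log2 fold change of 0.87 (adjusted p 0.203 by edgeR). The part of these markers in the values of the repair genes was not tested. Replicate 1 of sg1 and replicate 2 of sg5 stood apart from the rest on the first principal component, which held 44.0% of the variance. They scored 21.9 and 30.8, and the other 4 samples lay between -19.8 and -6.49. For the genes described one by one, joined values without these 2 libraries are given as well.

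Expression of the repair genes was examined first by level. Because TPM is scaled by length, levels can be set side by side between genes. Mean TPM over the 6 samples ranged from 4.77 (RNF168) to 384 (XRCC6), with a median of 31.5. There were 6 members above 100 TPM, namely XRCC6, LIG1, XRCC5, PARP1, H2AFX and FANCA, and 7 below 10 TPM. On protein-coding transcripts alone 4 lay above 100 TPM, and FANCA had 38.8 and H2AFX 88.7. Kallisto divides reads among the transcripts of a gene, and transcripts annotated as protein-coding held 87.8% to 89.2% of the members' counts per sample, against 88.9% to 90.3% over all genes with such a transcript. The shares differed widely between members. XRCC6 had 99.9% of its counts on protein-coding transcripts in every sample, whereas XRCC2 had 18.3% to 26.7% and RNF8 42.1% to 48.3%.

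**Figure D1:**
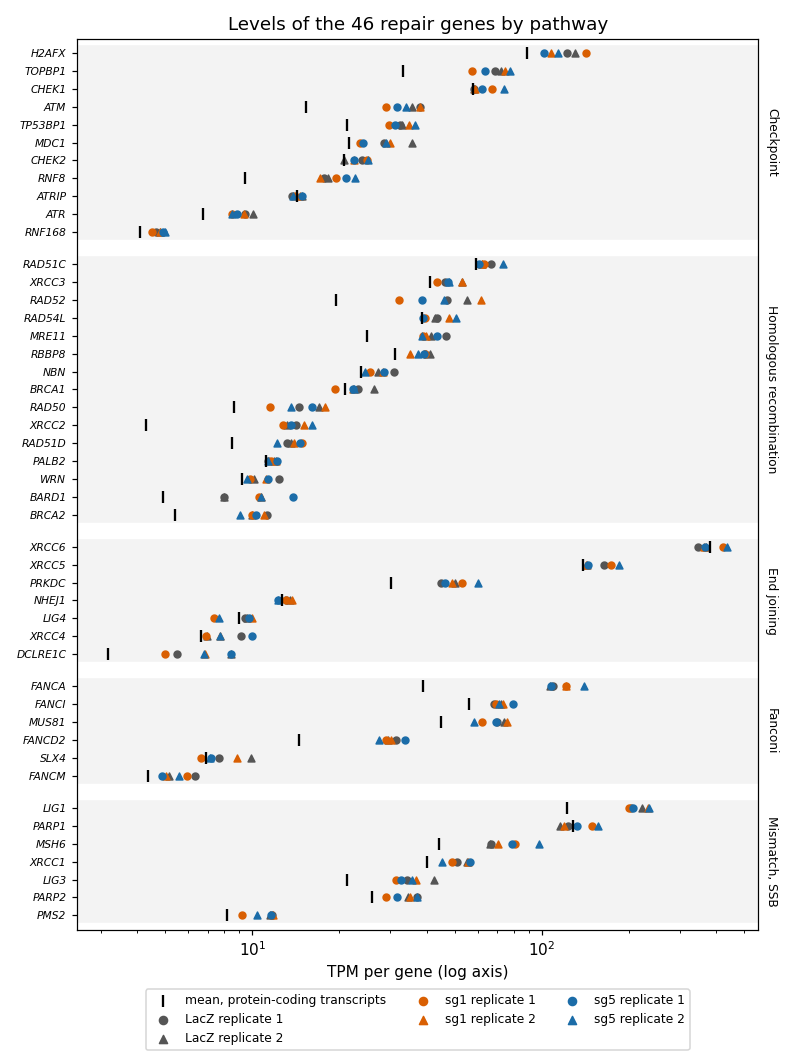
TPM of each repair gene (horizontal log axis) in every sample, grouped by pathway and ordered by mean level. Circles are replicate 1, triangles replicate 2, and black bars the mean TPM of protein-coding transcripts alone. XRCC6 lies highest at a mean of 384 TPM and RNF168 lowest at 4.77, and the black bar of XRCC2 lies far to the left of its points.

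Levels of subunits of one complex were next set side by side, over all transcripts and over protein-coding transcripts alone. XRCC6 and XRCC5, which together form the Ku ring that binds broken DNA ends, had mean levels of 384 and 159 TPM, while PRKDC, the kinase recruited by Ku, had 50.6. Their protein-coding levels were 382, 139 and 30.1 TPM. Of the complex that senses and trims breaks, MRE11 had 41.4 TPM, NBN 27.4 and RAD50 15.1. On protein-coding transcripts MRE11 and NBN lay close together, at 24.9 and 23.7 TPM, and RAD50 had 8.67. BRCA1 had 22.6 TPM and its partner BARD1 10.3, with 20.95 and 4.92 on protein-coding transcripts. FANCI and FANCD2, which are ubiquitinated as a pair, had 72.5 and 30.1 TPM. Their protein-coding levels were 56.0 and 14.5 TPM. By these means the order of the subunits was kept in each of these complexes, while the ratios changed. In single samples it was not always kept. On protein-coding transcripts NBN lay above MRE11 in LacZ replicate 2 (23.65 against 22.94 TPM) and in sg1 replicate 1 (22.89 against 22.69 TPM).

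To ask whether ARID1A deficiency altered these genes, each sgRNA group and then sg1 and sg5 joined were compared with LacZ with edgeR's quasi-likelihood test, and genes were called at a false discovery rate (FDR) under 0.1. In NB4 cells none of the repair genes passed this threshold in any comparison by edgeR. In sg1 against LacZ 0 of 46 were called, while 0.0378% of all genes tested were. In sg5 the members called were again 0 of 46, against 0.0972% of all genes, and in the joined comparison 0 of 46 against 0.167%. Between sg1 and sg5 0 of 46 were called, against 0.0054% of all genes. The smallest adjusted p among members was 0.993 in sg1, 0.634 in sg5 and 0.638 in the joined comparison. At an unadjusted p under 0.05, 0 of 46 members passed in sg1 against 4.15% of all genes, 1 of 46 in sg5 against 7.47%, and 1 of 46 in the joined comparison against 7.21%. The single gene was MSH6 each time. Between sg1 and sg5 0 members passed at that level, against 1.38% of all genes. With DESeq2 0 members were called as well, and MSH6 was the only one with an unadjusted p under 0.05, in sg5 and in the joined comparison. A gene past the threshold in one contrast and not in the other was not thereby shown to differ between sgRNAs.

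The fold changes of the members were small. In the joined comparison their log2 fold changes ranged from -0.23 (SLX4) to 0.34 (MSH6), with a median of 0.04, whereas the median over all genes tested was -0.01. There were 30 members above 0 and 16 below, and over all genes 9024 above and 9490 below. With a transcript length offset, which follows the gene summary of the authors more closely, the joined median was -0.0009, so that the sign of the median depended on this choice. The members' median was 0.03 in sg1 and 0.05 in sg5. These comparisons share the LacZ samples. The 95% confidence interval of the joined fold change lay within 1.5-fold in either direction for 43 of 46 members and within 2-fold for all 46, compared with 46.2% and 69.5% of all genes tested. The 3 members with wider intervals were RAD52, MSH6 and PARP1. The bound farthest from 0 was that of RAD52, at -0.72 on the log2 scale.

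**Figure D2:**
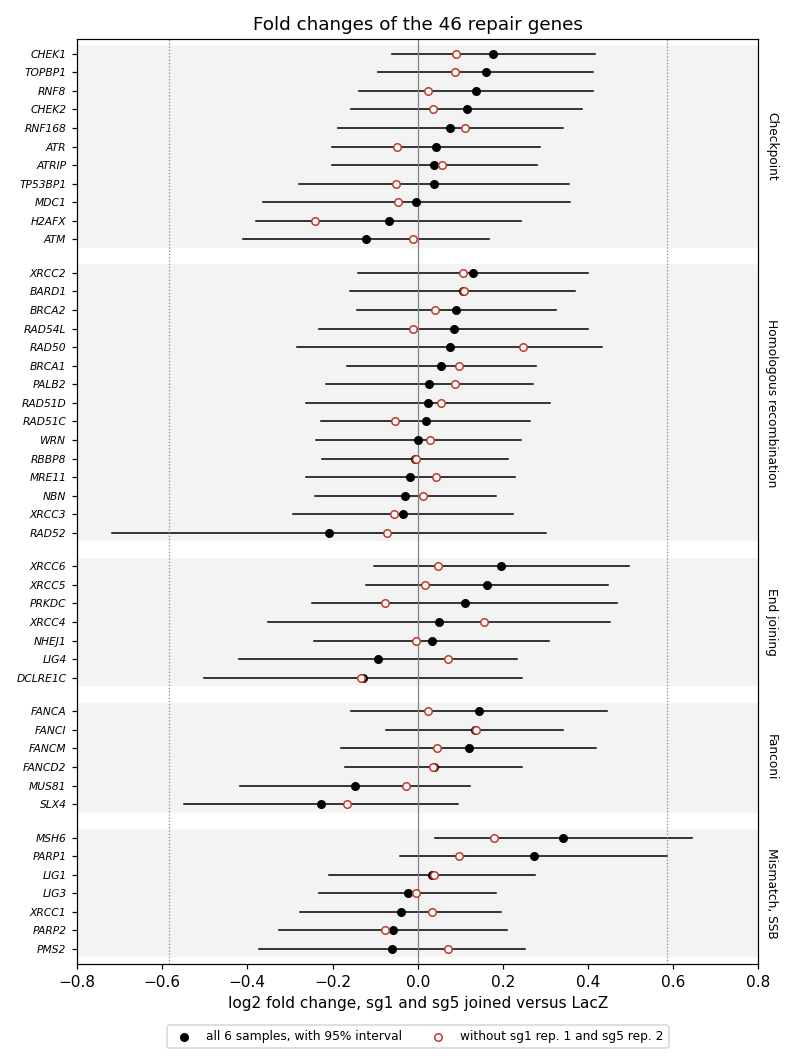
Log2 fold change of each repair gene in sg1 and sg5 joined against LacZ, grouped by pathway. Black points use all 6 samples with their 95% confidence interval as a line, open red points leave out sg1 replicate 1 and sg5 replicate 2, and dotted lines mark a 1.5-fold change. MSH6 alone has an interval that does not reach 0, from 0.04 to 0.64, and its open point lies at 0.18.

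Read per replicate in CPM over all transcripts, 5 of 46 members lay higher in all 4 ARID1A-deficient samples than in both LacZ samples. The share over all genes tested was 9.72%. These were TOPBP1, CHEK1, FANCI, PARP1 and MSH6. No member lay lower in all 4, against 10.4% of all genes. The larger of the 2 gaps between replicates of one sgRNA exceeded the joined fold change in 44 of 46 members, and in 83.2% of genes with counts in every sample. The 2 exceptions were FANCI and DCLRE1C.

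The checkpoint genes had a median joined log2 fold change of 0.04, with 8 of 11 above 0. H2AFX encodes the histone H2AX, which is phosphorylated around breaks, and was the most abundant of them at 120 TPM. LacZ samples had 133 and 143 CPM, against 162 and 120 under sg1 and 113 and 132 under sg5. The replicates of sg1 fell on both sides of LacZ, and the joined log2 fold change was -0.07 (SE 0.14), with an adjusted p of 0.920 by edgeR. Without the 2 libraries apart it was -0.24 with an adjusted p of 0.134, and its sign reversed when only protein-coding transcripts were counted (0.003).

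TOPBP1, which activates the kinase ATR at stalled replication forks, had 141 and 145 CPM in LacZ, against 153 and 156 under sg1 and 148 and 182 under sg5. CHEK1, the kinase that ATR activates to hold cells before mitosis, had 78.9 and 79.9 CPM in LacZ, against 89.0 and 83.4 under sg1 and 85.7 and 102 under sg5. Both genes were higher in all ARID1A-deficient samples, with the highest value in sg5 replicate 2. The joined log2 fold changes were 0.16 (SE 0.11, adjusted p 0.768) for TOPBP1 and 0.18 (SE 0.11, adjusted p 0.744) for CHEK1 by edgeR, and neither passed the threshold. Without the 2 libraries they were 0.09 each. With the transcript length offset the value of TOPBP1 was -0.003. The kinases ATM and ATR, the ATR partner ATRIP, CHEK2, the break-site scaffold proteins MDC1 and TP53BP1, and the ubiquitin ligases RNF8 and RNF168 ranged from -0.12 (ATM) to 0.14 (RNF8).

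The genes of homologous recombination had a median of 0.02, with 10 of 15 above 0. RAD51C, a recombination factor and the most abundant of them at 64.8 TPM, had 42.4 and 38.9 CPM in LacZ, against 40.2 and 38.3 under sg1 and 40.1 and 46.4 under sg5. XRCC3, which forms a complex with RAD51C, had 56.7 and 69.1 CPM in LacZ, against 61.7 and 65.3 under sg1 and 56.2 and 62.8 under sg5. The groups overlapped for both genes, and the joined log2 fold changes were 0.02 (SE 0.11) and -0.03 (SE 0.11). The adjusted p was 0.979 and 0.956 by edgeR. RAD51C had -0.05 and XRCC3 -0.06 when the 2 libraries apart were left out.

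RAD52, which anneals single strands of DNA, had the widest gap between replicates of all members. It had 34.6 and 38.8 CPM in LacZ, against 22.5 and 42.1 under sg1 and 29.004 and 33.6 under sg5, so that the lowest and the highest value of all 6 samples were the replicates of sg1. Joined, the log2 fold change was -0.21 (SE 0.22), with an adjusted p of 0.830 by edgeR. This value depended on the replicates of sg1. It was -0.46 without sg1 replicate 2 (unadjusted p 0.00644, adjusted p 0.281), -0.01 without sg1 replicate 1 and -0.07 without the 2 libraries apart. When the 2 libraries apart were left out, RAD52 was 0.54 higher in sg1 than in sg5, with an adjusted p of 0.0432 by edgeR. That fit had 1 sample for each sgRNA, whose spread was assumed to be that of LacZ, and 209 genes were called in it. XRCC2, a further recombination factor, had 45.5 and 42.1 CPM in LacZ, against 43.0 and 49.3 under sg1 and 45.1 and 54.5 under sg5, a joined value of 0.13 (SE 0.12, adjusted p 0.805 by edgeR). Of the XRCC2 counts 73.3% to 81.7% lay on a transcript annotated as processed and not coding, and on its protein-coding transcript alone the joined value was -0.07. It was 0.11 over all transcripts without the 2 libraries apart. The remaining members of the group were BRCA1, BRCA2, PALB2, BARD1, RAD50, MRE11, NBN, RBBP8, RAD54L, RAD51D and WRN. Their joined values lay between -0.03 (NBN) and 0.11 (BARD1). RAD51D overlaps a read-through gene, and its counts are uncertain.

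The level of BARD1 in TPM rested in part on few reads. Its TPM were 7.96 and 7.98 in LacZ, against 10.5 and 10.7 under sg1 and 13.8 and 10.7 under sg5, with no overlap between the genotypes, whereas its CPM were 25.1 and 22.3, 25.8 and 23.7, and 27.4 and 24.9. With the transcript length offset its joined log2 fold change was 0.56, with an adjusted p of 0.312 by edgeR, compared with 0.11 and an adjusted p of 0.833 without it. A retained-intron transcript of BARD1, 175 bases long, had 0 counts in both LacZ samples and between 2.9 and 6.4 in the others, which came to 2.12 to 4.95 TPM. The main protein-coding transcript, 5499 bases long, had 5.29 and 4.20 TPM in LacZ, against 4.98 and 4.66 under sg1 and 5.49 and 4.68 under sg5, so that the groups overlapped. BARD1 was singled out here after its values had been seen.

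End joining included the most abundant member. XRCC6 had 555 and 611 CPM in LacZ, against 714 and 601 under sg1 and 606 and 753 under sg5. XRCC5 had 349.9 and 346 CPM in LacZ, against 412 and 338 under sg1 and 368 and 442 under sg5. For both Ku subunits the 2 libraries apart held the highest values, and the other replicate of sg1 lay below at least 1 LacZ sample. The joined log2 fold change was 0.20 (SE 0.13, adjusted p 0.766) for XRCC6 and 0.16 (SE 0.13, adjusted p 0.781) for XRCC5 by edgeR. Without the 2 libraries these were 0.05 and 0.02. The group as a whole had a median of 0.05, and PRKDC, the ligase LIG4, its cofactors XRCC4 and NHEJ1, and the nuclease DCLRE1C ranged from -0.13 (DCLRE1C) to 0.11 (PRKDC).

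Of the Fanconi pathway, FANCA, a subunit of the core ubiquitin ligase, had 138 and 144 CPM in LacZ, against 153 and 154 under sg1 and 134 and 183 under sg5. FANCI, a substrate of that ligase, had 137 and 133 CPM in LacZ, against 141 and 142 under sg1 and 155 and 156 under sg5. FANCA of sg5 lay on both sides of LacZ, whereas FANCI in CPM was higher in every ARID1A-deficient sample and its replicates lay close together. In TPM the groups overlapped for FANCI, with 68.3 and 72.5 in LacZ, against 69.7 and 73.7 under sg1 and 79.8 and 71.0 under sg5. On its protein-coding transcripts sg1 replicate 2 (50.85 TPM) lay below both LacZ samples (54.3 and 54.09 TPM). Joined, the log2 fold change was 0.14 (SE 0.13, adjusted p 0.805) for FANCA and 0.13 (SE 0.09, adjusted p 0.766) for FANCI by edgeR. Without the 2 libraries FANCA had 0.03 and FANCI 0.14.

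SLX4, a scaffold for nucleases, and MUS81, one of these nucleases, had the lowest values of the group. SLX4 had 40.9 and 52.99 CPM in LacZ, against 36.3 and 46.1 under sg1 and 38.0 and 40.1 under sg5. MUS81 had 92.5 and 102 CPM in LacZ, against 84.4 and 103 under sg1 and 88.4 and 76.7 under sg5. The groups overlapped in sg1 for both genes, while both sg5 samples lay below both LacZ samples. The joined log2 fold change was -0.23 (SE 0.14, adjusted p 0.750) for SLX4 and -0.15 (SE 0.12, adjusted p 0.788) for MUS81 by edgeR. These were -0.17 and -0.03 without the 2 libraries apart. FANCD2 had 0.04 and FANCM 0.12, and the median of the 6 genes was 0.08.

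Mismatch and single-strand repair held the 2 highest values of the 46, those of MSH6 and PARP1, although the median of the group was -0.02. MSH6 encodes a protein that recognises mispaired bases. It had 130.5 and 125 CPM in LacZ, against 166 and 140.0 under sg1 and 149 and 193 under sg5. The 4 ARID1A-deficient samples all lay above LacZ, with the libraries apart highest in each sgRNA group. The log2 fold change was 0.26 (SE 0.15, adjusted p 0.993) in sg1 and 0.42 (SE 0.15, adjusted p 0.634) in sg5, and the joined value was 0.34 (SE 0.13, unadjusted p 0.0306, adjusted p 0.638 by edgeR). The difference between sg1 and sg5 was -0.16, with a 95% interval from -0.50 to 0.19. Without the 2 libraries the joined value was 0.18 with an adjusted p of 0.427, and leaving out sg5 replicate 2 alone gave 0.24.

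The counts of MSH6 were divided differently between its transcripts in different samples. In the GENCODE annotation MSH6 lies on GRCh38 at chr2:47695530-47810101, plus strand, with 12 annotated transcripts, an interval that overlaps FBXO11. Its most counted transcript, annotated as a target of nonsense-mediated decay, held 55.7% and 58.9% of its counts in LacZ, against 70.7% and 58.7% under sg1 and 54.9% and 43.2% under sg5. Protein-coding transcripts held 41.2% and 39.3% in LacZ, against 27.2% and 38.8% under sg1 and 42.7% and 54.3% under sg5. Thus the 2 libraries apart had the lowest and the highest share. When only protein-coding transcripts were counted, the joined value was 0.31 with an adjusted p of 0.714, and sg1 against sg5 gave -0.75 with an unadjusted p of 0.0119 and an adjusted p of 1.00 by edgeR. On these transcripts sg5 against LacZ gave 0.68, with an adjusted p of 0.532 by edgeR. Their TPM were 36.51 and 39.32 in LacZ, against 39.1 and 38.66 under sg1 and 47.14 and 64.15 under sg5. By this measure the sg1 samples lay between the LacZ samples, and only sg5 lay above both. Shares of single transcripts rest on a division of shared reads and are uncertain.

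PARP1, which marks strand breaks with poly(ADP-ribose), had 354 and 345 CPM in LacZ, against 458 and 356 under sg1 and 393 and 484 under sg5. All 4 ARID1A-deficient samples lay above LacZ, sg1 replicate 2 only just, and the libraries apart were highest. Joined, the log2 fold change was 0.27 (SE 0.14, unadjusted p 0.0803, adjusted p 0.742 by edgeR), and without the 2 libraries it was 0.10. LIG1, the ligase that seals nicks during replication, had 303 and 332 CPM in LacZ, against 309.8 and 347 under sg1 and 308 and 337 under sg5. Replicate 2 of each sgRNA lay above both LacZ samples and replicate 1 between them, and the joined value was 0.03 (SE 0.11, adjusted p 0.953 by edgeR), or 0.04 without the 2 libraries apart. PARP2, the scaffold XRCC1 and its ligase LIG3 ranged from -0.06 (PARP2) to -0.02 (LIG3). PMS2, a mismatch repair endonuclease subunit, had -0.06. Near-identical copies of PMS2 carried reads of their own, PMS2CL between 1192 and 1492 counts and PMS2P3 between 523 and 787, so that the value of PMS2 is uncertain.

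**Figure D3:**
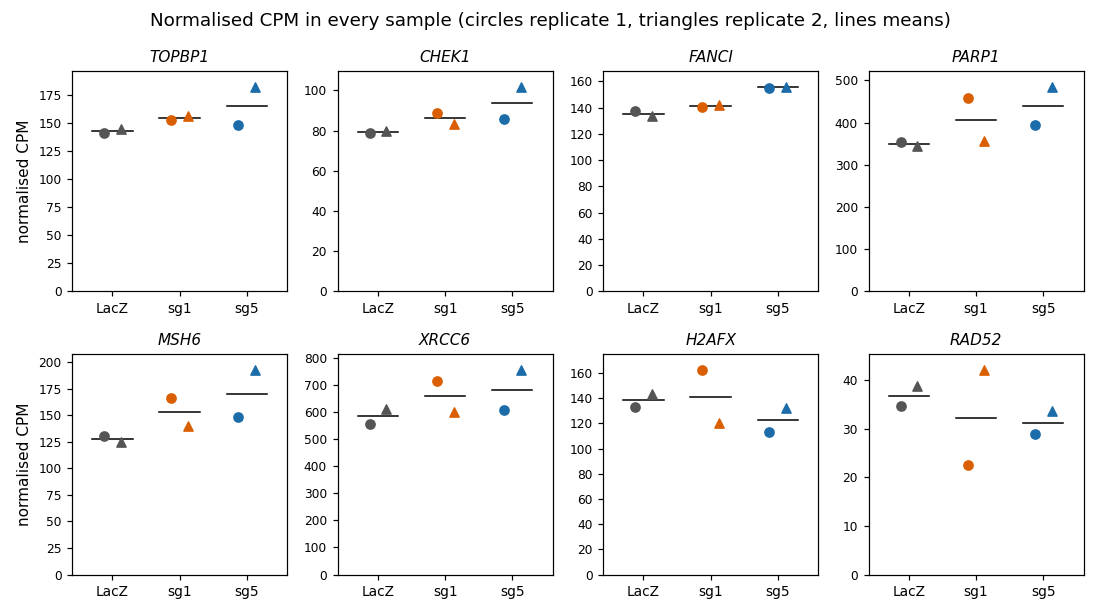
Normalised CPM (vertical axes from 0) of 8 repair genes in every sample, circles for replicate 1, triangles for replicate 2 and lines for group means. TOPBP1, CHEK1, FANCI, PARP1 and MSH6 are higher in all ARID1A-deficient samples than in LacZ, sg1 replicate 1 and sg5 replicate 2 are high for PARP1, MSH6 and XRCC6, and RAD52 of sg1 spans 22.5 to 42.1.

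Promoter sequences were next read for the members with the largest joined fold changes, MSH6 and PARP1, and for matches to motifs of factors that act on cell cycle and housekeeping genes. RefSeq windows from 250 bases before to 50 bases after the start of the gene (GRCh38.p14) were matched for 41 of the 46 members. The 250 bases before the start of each gene are given 5′ to 3′ in the direction of the gene, with matches in capitals. The stretch of MSH6 lies at chr2:47782895-47783144, plus strand, and that of PARP1 at chr1:226408094-226408343, minus strand. The MSH6 stretch falls inside the GENCODE interval of the gene (chr2:47695530-47810101), since RefSeq and GENCODE place its start at different positions.
MSH6: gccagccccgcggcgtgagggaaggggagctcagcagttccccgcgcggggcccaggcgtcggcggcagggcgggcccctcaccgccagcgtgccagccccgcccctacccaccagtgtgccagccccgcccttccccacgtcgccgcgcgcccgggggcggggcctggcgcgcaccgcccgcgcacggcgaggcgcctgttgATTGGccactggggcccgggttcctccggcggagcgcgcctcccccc
PARP1: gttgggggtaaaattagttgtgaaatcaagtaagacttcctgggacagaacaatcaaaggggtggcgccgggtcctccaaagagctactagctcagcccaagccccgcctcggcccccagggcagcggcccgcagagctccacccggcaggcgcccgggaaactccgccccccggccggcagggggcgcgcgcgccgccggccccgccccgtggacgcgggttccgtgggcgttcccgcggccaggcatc
The capitals in MSH6 mark a CCAAT box read on the opposite strand, and the PARP1 stretch held no match to the letters searched.

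The letters TTTGGCGC or TTTCCCGC, forms of the site bound by E2F factors, were searched on both strands and found in the windows of 5 of 41 members (12.2%), against 3.19% of 16410 windows of tested genes and 2.27% of all 35116 windows. The 30 bases around each match follow, again in the direction of the gene and with the match in capitals.
XRCC2: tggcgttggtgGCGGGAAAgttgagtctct
XRCC6: tgtccaagttggtcgcttccctGCGCCAAA
FANCD2: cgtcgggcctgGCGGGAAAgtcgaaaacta
LIG1: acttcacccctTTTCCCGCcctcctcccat
MSH6: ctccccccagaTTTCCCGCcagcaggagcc
These lie on GRCh38.p14 at chr7:152676102-152676131 for XRCC2 (minus), chr22:41621315-41621344 for XRCC6 (plus), chr3:10026424-10026453 for FANCD2 (plus), chr19:48170440-48170469 for LIG1 (minus) and chr2:47783137-47783166 for MSH6 (plus). The match in LIG1 began 114 bases before the start, that in FANCD2 2 bases before it, and those in XRCC2, XRCC6 and MSH6 at bases 22, 43 and 4 after it. The joined log2 fold changes of these 5 genes were 0.13 (XRCC2), 0.20 (XRCC6), 0.04 (FANCD2), 0.03 (LIG1) and 0.34 (MSH6). The other letters, also read on both strands, were CCAAT, found in 51.2% of member windows against 34.2% of windows of tested genes, the ETS form CCGGAAG in 31.7% against 15.9%, and the cell cycle homology element TTTGAA in 9.76% against 11.0%. Matches to different letters may overlap. These shares are descriptions and not evidence of binding.

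The libraries that stood apart were then followed through the repair genes, beside the S phase and G2/M gene lists distributed with Seurat, from which the members had been removed. Relative to LacZ, the mean log2 CPM of the S phase list was 0.22 and 0.07 under sg1 and 0.11 and 0.35 under sg5. That of the G2/M list was 0.25 and 0.02 under sg1, then -0.01 and 0.37 under sg5. For the 46 repair genes it was -0.01 and 0.04 under sg1, then 0.01 and 0.10 under sg5. Thus sg1 replicate 1 was the higher replicate of its sgRNA for both cell cycle lists but not for the repair genes. In the joined comparison 39 of 40 S phase genes and 48 of 53 G2/M genes lay above 0, with medians of 0.22 and 0.17, against 30 of 46 and 0.04 for the repair genes. In bulk samples more cells of a phase and more RNA per cell cannot be told apart.

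**Figure D4:**
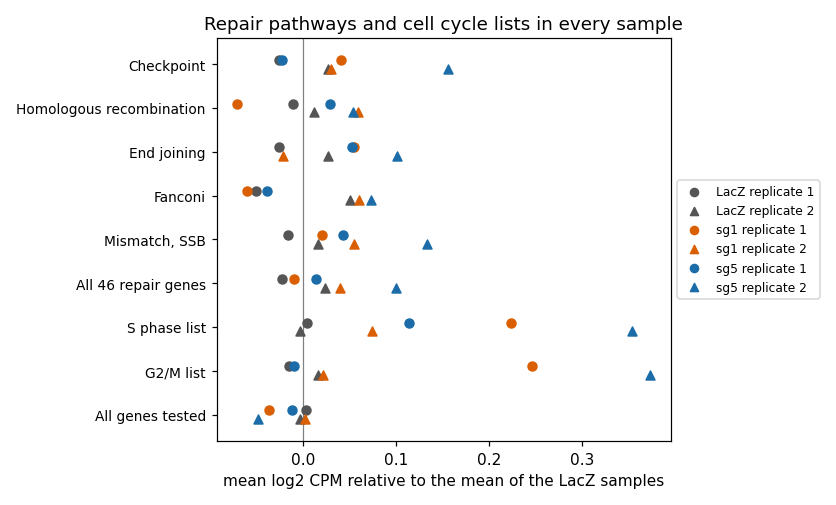
Mean log2 CPM of each repair pathway, of all 46 repair genes, of the S phase and G2/M lists and of all genes tested, relative to the mean of the LacZ samples (horizontal axis), in every sample. The S phase and G2/M lists of sg1 replicate 1 and sg5 replicate 2 lie between 0.22 and 0.37, while all 46 repair genes lie between -0.02 and 0.10.

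Single members were next compared between the library apart and the other replicate of each sgRNA. In both directions the share of the members lay below that of all genes tested. There were 12 of 46 members higher in the library apart than in the other replicate under both sgRNAs (26.1%), compared with 31 of 40 S phase genes (77.5%), 44 of 53 G2/M genes (83.0%) and 30.3% of all genes tested. These 12 were the checkpoint genes ATR, CHEK1, CHEK2, H2AFX and RNF8, the recombination genes BRCA2 and RAD51C, the end joining genes XRCC5, XRCC6 and PRKDC, and MSH6 and PARP1. A further 12 were lower under both sgRNAs (26.1%), as were 6291 of 18514 genes tested, namely ATM, ATRIP, MRE11, NBN, RAD50, PALB2, LIG4, XRCC4, MUS81, PMS2, XRCC1 and LIG3. The largest such gap was that of RAD50, at -0.58 (log2) under sg1 and -0.17 under sg5. When both libraries were left out, 35 of 46 members kept the sign of their joined fold change and 25 had a smaller one. RAD50 then had a joined value of 0.25, with an adjusted p of 0.192. The part of the libraries apart in these values was not tested beyond leaving them out.

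Other lists of the damage response were examined in the joined comparison, and none of their genes were called by edgeR with all 6 samples. Over all genes tested 7.21% had an unadjusted p below 0.05 in either direction. Of 24 nucleotide excision genes, 1 was higher and 1 was lower with an unadjusted p below 0.05, with a median of 0.03. GTF2H2, a subunit of the repair factor TFIIH that has near-identical copies and is therefore uncertain, had 22.02 and 21.7 CPM in LacZ, against 25.1 and 26.9 under sg1 and 25.2 and 26.7 under sg5. XAB2 had 36.2 and 13.6 CPM in LacZ, against 13.2 and 14.3 under sg1 and 12.7 and 8.31 under sg5, with LacZ replicate 1 far above the other samples and a joined value of -1.05 (SE 0.38, adjusted p 0.639 by edgeR). GTF2H2 had 0.25 and XAB2 -0.89 without the 2 libraries apart.

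Of 19 base excision genes, 1 was higher and 0 lower at that level, with a median of -0.05. UNG, the uracil glycosylase, had 135 and 129.9 CPM in LacZ, against 179.5 and 141 under sg1 and 152 and 187 under sg5, a joined value of 0.32 (SE 0.13, adjusted p 0.678 by edgeR). FEN1, the flap nuclease, had 134 and 121 CPM in LacZ, against 199.5 and 126 under sg1 and 156 and 213 under sg5, a joined value of 0.44 (SE 0.20, adjusted p 0.700 by edgeR). Both showed the highest values in the 2 libraries apart, without which the joined values were 0.15 and 0.14. None of 13 translesion synthesis genes passed at that level, with a median of 0.06, and POLH, a polymerase that copies past ultraviolet lesions, had the largest value at 0.32 (SE 0.15, adjusted p 0.716 by edgeR), or 0.18 without those libraries.

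Target genes of p53 report on damage signalling. Of 23 such genes 20 were tested, 2 were higher and 2 were lower with an unadjusted p below 0.05, against 7.21% of all genes in either direction, and the median was -0.04. With no overlap between genotypes 4 were higher and 5 lower, against 9.72% and 10.4% of all genes. RRM2B, a ribonucleotide reductase subunit, had 43.1 and 43.8 CPM in LacZ, against 49.1 and 51.4 under sg1 and 53.6 and 49.1 under sg5. GADD45A, a stress-induced gene, had 7.37 and 10.9 CPM in LacZ, against 5.87 and 6.46 under sg1 and 6.67 and 4.08 under sg5. The samples did not overlap between genotypes for either gene, in opposite directions. The joined log2 fold changes were 0.23 (SE 0.10, adjusted p 0.686) for RRM2B, 0.37 (SE 0.15, adjusted p 0.664) for SESN1, -0.67 (SE 0.24, adjusted p 0.581) for GADD45A and -0.59 (SE 0.25, adjusted p 0.690) for BBC3 by edgeR. SESN2 had the value farthest from 0, at -0.73 (SE 0.55, adjusted p 0.789), with 73.0 and 83.6 CPM in LacZ, against 49.7 and 68.3 under sg1 and 60.1 and 15.9 under sg5. Without the 2 libraries apart SESN2 and BBC3 passed the threshold by edgeR, at -0.29 (adjusted p 0.0520) and -0.32 (adjusted p 0.0942), in a fit that called 4.19% of all genes and had 1 sample for each sgRNA. RRM2B then had 0.27, SESN1 0.24 and GADD45A -0.48, and none of these 3 passed.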

How the data were processed

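RNA-seq of the 6 NB4 samples was analysed from the tables the authors deposited, which hold estimated counts (expected counts, not whole numbers) and TPM for 196354 transcripts per sample. Per the labels and methods, kallisto was used, then gene summary with tximport and DESeq2, and the labels name hg19. The kallisto version and transcript set used for these human libraries are not given in the sources used here. Identifiers of 181857 transcripts (92.6%), carrying 95.4% to 95.5% of counts, matched GENCODE 29 (GRCh38), from which gene coordinates come. Counts were summed to 52992 genes and rounded.

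Genes were tested with edgeR 4.0.16 (R 4.3.3) by the quasi-likelihood test with robust estimation, TMM factors and filterByExpr (minimum count 10), with all 6 samples in one model of group only. The Benjamini-Hochberg adjustment ran over 18514 genes, and the FDR threshold was 0.1, as in the study. Standard errors came from the F statistic. DESeq2 1.42.0, other scalings, filters, a length offset, a replicate block, 2 fits added after seeing the data (a crossed block and protein-coding transcripts only) and leaving out samples were alternatives. CPM are scaled by TMM factors. The code was checked on simulated counts. The common biological coefficient of variation was 16.6%, and counting intervals were not needed at these depths.

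The members and all lists were chosen with earlier results of these data known. All members were counted by pathway. Values per sample were printed for ARID1A, for members past either threshold in the joined comparison, and in each pathway for the 2 most abundant and the 2 with the largest joined fold change. BARD1 was added after its values were seen. Promoters are from RefSeq. Python 3.11.15 was used for joins and plots.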

Additional observations from a re-analysis of the deposited data

Results flagged for a closer look

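Among the 4 ARID1A-deficient samples, 3 of 46 repair genes had a sample far from the other 3, by a gap above the critical share of the range in Dixon's test of CPM. Chance flags about 1 in 20 groups, and 3 of 46 lies near that share. The 4 samples joined sg1 and sg5, and no share over all genes tested is given. RNF168, a ubiquitin ligase at breaks, was low in sg1 replicate 1 (gap 0.854 of the range), with 17.4 CPM against 19.0 to 19.3 in the others and 17.4 and 18.0 in LacZ. BRCA2, a mediator of homologous recombination, was low in sg5 replicate 1 (0.857), with 45.4 CPM against 51.2 to 52.2, and 45.1 and 49.0 in LacZ. FANCM, a translocase of the Fanconi pathway, was high in sg5 replicate 2 (0.952), with 20.1 CPM against 16.3 to 16.5, and 15.5 and 16.3 in LacZ. No cause was tested.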

How the results depend on the processing

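The members called stayed at 0 in the 3 comparisons with LacZ under all alternatives run, among them the replicate block, which gave 0 in each comparison and 0 members at an unadjusted p under 0.05 in the joined one. The sources do not say whether the replicate numbers pair the samples. Deviations of same-numbered samples correlated at 0.11, 0.03 and -0.36, which cannot decide it, since each group gave a single difference. The value of -0.36 was between sg1 and sg5, whose libraries apart carry different replicate numbers. The crossed block, added after seeing the data, also called 0 members. It called 194 genes in all against 31, compared with 3 under the block. It had 2 members at an unadjusted p under 0.05, for which no share over all genes is given. Without both libraries apart RAD52 was 0.54 higher (log2) in sg1 than in sg5, and the members' median of that comparison was 0.0055. RAD51C then had a joined value of -0.0536. With no overlap 12 members lay higher and 2 lower, against 19.5% and 18.4% of all genes. In that fit 807 genes were called in the joined comparison and its single replicates were assumed to vary like LacZ. The cause was not tested.

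With the transcript length offset the joined median was -0.000936 and TOPBP1 had -0.0028. With protein-coding transcripts only the sg1 median was -0.0134, H2AFX had 0.0033 and XRCC2 -0.072, and 3 members lay higher with no overlap, against 10.9% of all genes. The joined count of all genes called was 264 with DESeq2, 701 with no filter, 19 with a mean of at least 50 counts, 17 without robust estimation, 13 with protein-coding transcripts and 12 at an FDR under 0.05. Members at an unadjusted p under 0.05 in the joined comparison were 2 with the length offset and 2 with no filter. The share of all genes at that p is not given for these fits, so that these counts cannot be set against it.

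Leaving out each sample in turn moved the joined value of LIG1 between -0.0261 and 0.104, of RAD51C between -0.0404 and 0.0868, of XRCC3 between -0.165 and 0.118 and of H2AFX between -0.182 and 0.0423. Members with no overlap were 5 to 13 higher and 0 to 7 lower, against 11.0% to 21.9% and 12.4% to 22.1% of all genes. The sg5 median ran from 0.0352 to 0.106 and the sg1 against sg5 median from -0.0799 to 0.0238. All genes called in the joined comparison ranged from 3 (without LacZ replicate 1) to 193 (without sg5 replicate 1). With 2 replicates a group, the median SE of a member's joined log2 fold change was 0.12.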
